A study of Mus musculus with 24 samples.

Results

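The interferon-stimulated and nucleic acid sensing genes examined here are 43 genes chosen by name, of 55414 genes listed in the deposited count table, and all 43 had a count in at least 1 library. They comprise the type I interferon receptor chains, the transcription factors downstream of it, the cytosolic DNA and RNA sensors with their adaptors, and antiviral effector genes that interferon induces. They were followed in splenic Tconv CD4+ cells (CD4+ CD25-) of conplastic mice, whose nuclear genome is that of C57BL/6J throughout and whose mitochondria carry either the mtDNA of C57BL/6J (mtDNA B6, WT in the labels) or that of the NZB strain (mtDNA NZB). Cells were either kept at rest or activated for 72 h with beads that engage CD3 and CD28, together with IL-2. Each haplotype and state was measured in 6 libraries, 24 in all, with MARS-seq on bulk RNA. This method reads the 3′ end of polyadenylated RNA and counts molecules by their unique molecular identifiers (UMIs). Age is not in the labels, though most mice of the work were males of 2 to 3 months. The labels also do not say whether the libraries of a group came from separate mice, so the p-values measure the spread between these libraries, which may be technical.

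Type I interferons bind a receptor made of IFNAR1 and IFNAR2. Kinases at the receptor then activate transcription factors, which bind interferon-stimulated response elements in the promoters of their targets. Interferon gamma uses another receptor and acts through gamma-activated sites, and many genes answer to both. Double-stranded RNA and DNA in the cytosol, mtDNA released from damaged mitochondria among them, are sensed by RIG-I, MDA5 and cGAS, which signal through MAVS and STING to IRF3 and IRF7. In T cells, interferon-stimulated genes are also expressed without infection, and T cell receptor signaling itself produces interferon gamma.

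Because the listed genes are known for these elements, the promoters were searched first for the letters of the 2 elements, from 250 bases before to 50 bases after the start of the canonical transcript (GRCm39, GENCODE annotation). The core of the interferon-stimulated response element was spelled TTTCNNTTTC, searched on both strands, and the gamma-activated site TTCNNNGAA, which reads the same on both strands. The first was found in 19 of 43 member promoters (44.2%) and in 3.84% of the 21757 protein-coding promoters of the same length, the second in 11 of 43 (25.6%) and in 8.82%. The windows below were chosen because they belong to members that fell (Oas2, Isg15) or rose (Gbp2, Gbp7, Zbp1, Samhd1) on activation in both haplotypes or did not pass the test in either (Ifit1, Irf1), as described further on. Each is given 5′ to 3′ on the strand of its gene with the matched letters in capitals.
Oas2, response element (chr5:120887970-120887999, minus strand): cacacttgagTTTCGATTTCctaggttcct
Isg15, response element, reverse complement (chr4:156285328-156285357, minus strand): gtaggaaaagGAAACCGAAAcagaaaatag
Ifit1, response element (chr19:34618194-34618223, plus strand): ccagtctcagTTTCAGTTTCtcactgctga
Gbp2, response element (chr3:142326355-142326384, plus strand): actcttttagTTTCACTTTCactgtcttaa
Gbp7, response element (chr3:142236034-142236063, plus strand): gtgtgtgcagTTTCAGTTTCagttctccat
Zbp1, response element (chr2:173060790-173060819, minus strand): ccgatttcaaTTTCGATTTCgacacccttt
Gbp7, gamma-activated site (chr3:142235981-142236010, plus strand): tccgttttctTTCCAGGAAaagcagaagct
Zbp1, gamma-activated site (chr2:173060768-173060797, minus strand): caccctttctTTCCGAGAAccacaccaaag
Samhd1, gamma-activated site (chr2:156977232-156977261, minus strand): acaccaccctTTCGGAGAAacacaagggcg
Irf1, gamma-activated site (chr11:53660741-53660770, plus strand): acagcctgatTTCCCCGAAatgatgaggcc
A match describes the letters in the window and is not a shown binding site.

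Libraries held 51409 to 6449395 UMI counts, and levels are given as CPM, counts scaled to a common library size, after TMM scaling. Resting mtDNA NZB replicate 2 holds the 51409 counts, where 1 count is worth 16.9 CPM, and it enters the fits but not the ranges of levels, so resting mtDNA NZB levels come from 5 libraries. Il2ra, which encodes CD25, had medians of 3.17 and 3.21 CPM at rest and of 76.3 and 102 CPM after activation in mtDNA B6 and mtDNA NZB libraries, in the order of the state labels. The T cell genes Cd3e and Cd4 were detected in each of the 23 libraries with over 100000 counts, with lowest values of 216 and 411 CPM. Markers of other cell types moved with the state of the cells, as described below. The number of reads behind each UMI divides the libraries into 3 sets of 8 that are spread unevenly over the groups, so a fit with the set as a term was run beside the others.

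Activation changed the members in both directions. In mtDNA B6 cells 26 of the 41 members with enough counts to be tested passed (63.4%; adjusted p of at most 0.05 over all 10566 genes tested, with no fold cut-off, from edgeR's quasi-likelihood test), 11 of them higher and 15 lower in activated cells, against 46.9% of all genes tested (22.4% higher and 24.5% lower). In mtDNA NZB cells 22 of 41 passed (53.7%), 10 higher and 12 lower, against 53.5% of all genes (25.2% higher and 28.4% lower). The share of members called in mtDNA NZB cells was therefore that of the genes at large. The median log2 change of the members was -0.23 (mtDNA B6) and 0.04 (mtDNA NZB), beside -0.03 and -0.06 over all genes. The members called in both haplotypes, 10 higher and 10 lower, make up 76.9% of those called in mtDNA B6 cells. They make up 90.9% of those called in mtDNA NZB cells, and 0 members were called in opposite directions. The same shares over all genes were not counted, so this overlap is not shown to be particular to the members. With a log2 change of at least 1 also required, 6 members rose and 8 fell in mtDNA B6 cells (beside 7.06% and 10.6% of all genes), while with mtDNA NZB the numbers were 6 and 8 (beside 9.46% and 14%). The resting and activated libraries did not overlap for 6 members that were higher and 9 that were lower after activation with mtDNA B6 (15.4% and 16.4% of all genes), and for 7 and 8 with mtDNA NZB (14.1% and 13.9%).

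**Figure D1:**
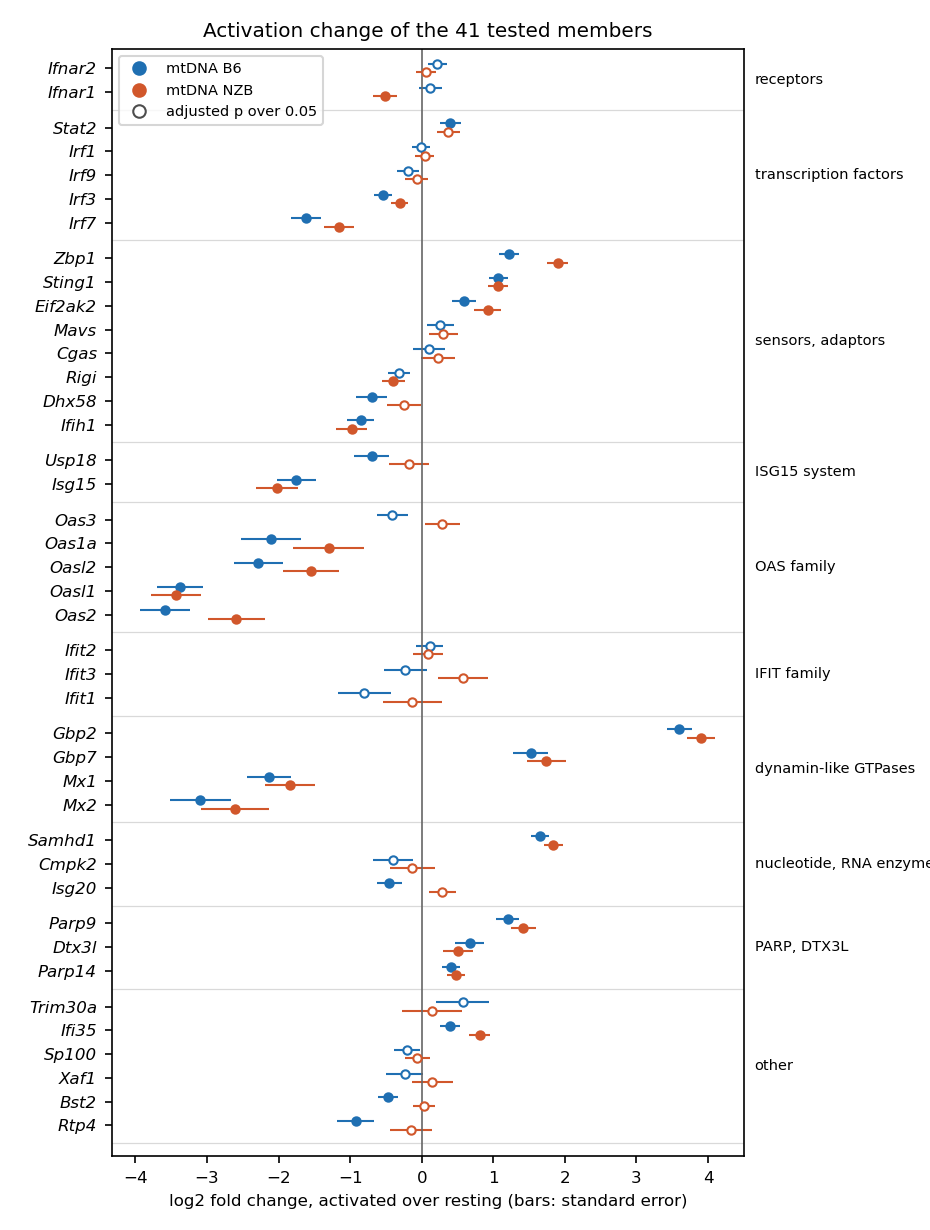
Log2 fold change on activation (x axis, activated over resting; bars are standard errors) of the 41 tested members, grouped by role, in mtDNA B6 (blue) and mtDNA NZB (orange) cells; filled points have an adjusted p of at most 0.05. Oas1a, Oas2, Oasl1, Oasl2, the Mx genes, Isg15 and Irf7 lie to the left in both haplotypes, and Gbp2, Gbp7, Samhd1, Zbp1, Sting1 and Parp9 to the right.

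The 2-5A synthetases make the oligoadenylates that activate RNase L, and OASL1 is a relative that lacks this activity. In the OAS family 4 of 5 members fell in mtDNA B6 cells and the same 4 in mtDNA NZB cells. Oas2 had 14.8, 26.6 and 38.0 CPM (lowest, median and highest of 6) in resting and 0.991, 2.02 and 3.58 CPM in activated mtDNA B6 libraries. In mtDNA NZB libraries it had 19.7, 12.4, 10.6, 5.04 and 6.83 CPM at rest (replicates 1, 3, 4, 5 and 6) and 0.929, 1.53 and 4.79 CPM after activation. No activated library reached the lowest resting one of its haplotype. Oas2 thus changed by -3.58 on the log2 scale with mtDNA B6 (standard error 0.35, adjusted p = 1.23e-08) and by -2.59 with mtDNA NZB (standard error 0.40, adjusted p = 7.28e-06). Oasl1 changed by -3.38 (standard error 0.32, adjusted p = 5.31e-09) and -3.43 (standard error 0.35, adjusted p = 1.69e-08) in the same order. Its medians went from 23.1 to 2.68 CPM and from 18.7 to 2.01 CPM, again with no overlap. Oasl2 fell by 2.28 and 1.55 on the log2 scale. Oas1a fell by 2.10 and 1.30, but its mtDNA NZB libraries overlapped, and its adjusted p there was 0.0293 over 24 libraries and 0.086 over 21 libraries, an alternative that drops 3 mtDNA NZB libraries (replicate 6 of both states and replicate 2 at rest). Oas3 is the member of the family that did not pass, with log2 changes of -0.41 (adjusted p = 0.138) and 0.29 (adjusted p = 0.337). The last 1000 transcript bases of Oas1a are 98.2% identical to those of Oas1g, so its counts may be divided with that gene. Its 3′ end also overlaps the coding gene Oas1d on the other strand. Oas1a rests on few molecules, with 0 to 11 counts in the activated mtDNA NZB libraries.

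The Mx proteins and the guanylate-binding proteins are both dynamin-like GTPases, the former directed at viruses and the latter known as interferon gamma targets that act on pathogen vacuoles. Both Mx genes fell and both Gbp members rose in each haplotype. Mx2 had 3.37, 6.86 and 10.2 CPM in resting and 0.212, 0.652 and 1.78 CPM in activated mtDNA B6 libraries. In resting mtDNA NZB libraries it had 7.01, 4.70, 6.72, 5.04 and 2.81 CPM, and after activation 0, 0.876 and 1.64 CPM. Its groups did not overlap in either haplotype, with log2 changes of -3.09 (standard error 0.43, adjusted p = 1.97e-06) and -2.61 (standard error 0.47, adjusted p = 4.6e-05). Mx1, which is known to be defective in C57BL/6 mice, fell by 2.13 and 1.84 on the log2 scale. The levels of both Mx genes rest on few molecules, at most 43 counts in a library. Gbp2 stood at 23.3, 36.8 and 41.5 CPM in resting and 267, 467 and 497 CPM in activated mtDNA B6 libraries. In mtDNA NZB libraries it stood at 28.4, 39.6, 23.5, 26.1 and 19.3 CPM at rest and at 364, 384 and 516 CPM after activation. The lowest activated library was therefore far above the highest resting library in both haplotypes, and the change was 12.2-fold in mtDNA B6 cells (log2 3.60, standard error 0.18, adjusted p = 1.4e-13) and 15.0-fold in mtDNA NZB cells (log2 3.90, standard error 0.20, adjusted p = 1.83e-13). Gbp7 rose by 1.52 and 1.74 on the log2 scale (adjusted p = 1.47e-05 and 7.09e-06), with 1 activated mtDNA NZB library, at 12.4 CPM, inside the resting range.

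**Figure D2:**
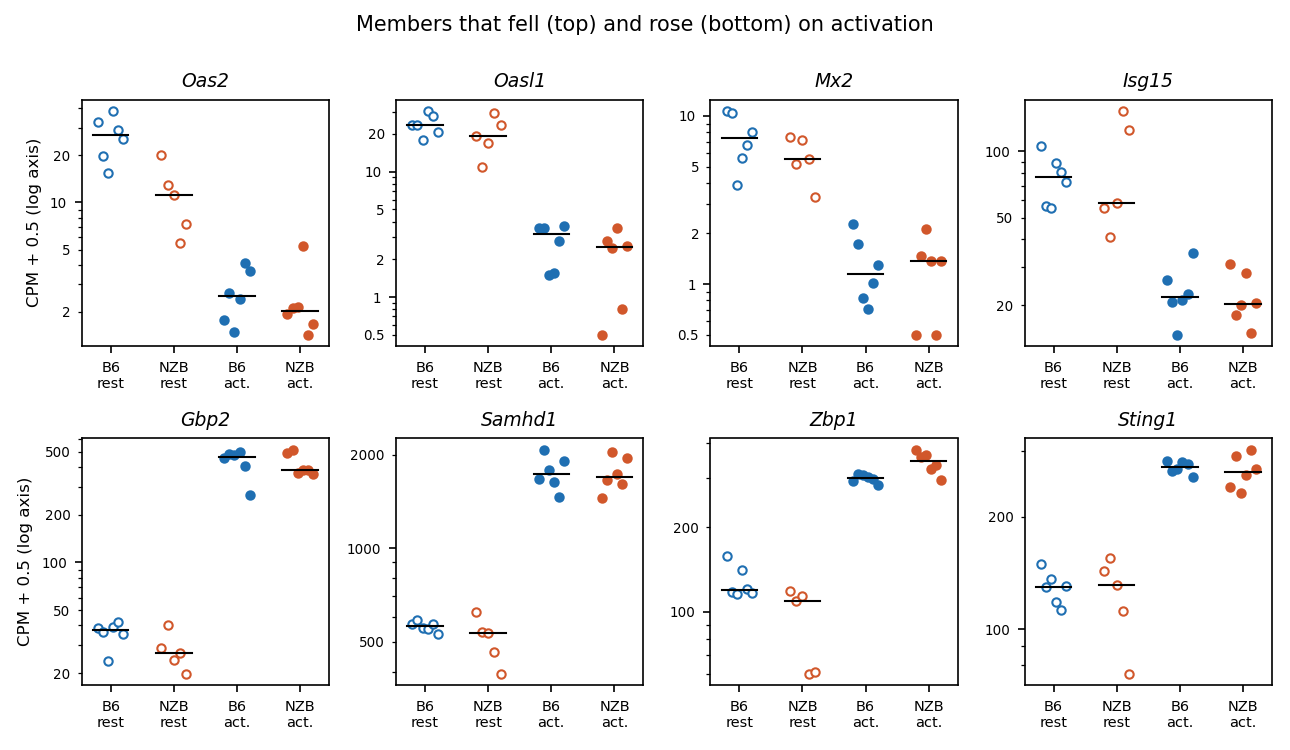
Level of 8 members in each library (y axis, CPM + 0.5 on a log axis; open points at rest, filled points activated, bars are medians) for mtDNA B6 (blue, 6 and 6 libraries) and mtDNA NZB (orange, 5 and 6 libraries). Oas2, Oasl1, Mx2 and Isg15 are lower in every activated library than in any resting library of the same haplotype, and Gbp2, Samhd1, Zbp1 and Sting1 are higher.

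ISG15 is a ubiquitin-like protein that is conjugated to other proteins, and USP18 removes it and also blocks IFNAR2. Isg15 had 55.0, 76.1 and 105 CPM in resting and 14.2, 21.3 and 34.1 CPM in activated mtDNA B6 libraries. With mtDNA NZB, resting libraries had 55.1, 40.3, 57.9, 153 and 125 CPM and activated ones 14.6, 19.9 and 30.2 CPM, so that replicates 5 and 6 at rest stood above the other 3. It changed by -1.75 (standard error 0.27, adjusted p = 9.87e-06) and -2.02 (standard error 0.29, adjusted p = 2.3e-06) on the log2 scale, with no overlap in either haplotype. Usp18 fell by 0.70 with mtDNA B6 (standard error 0.25, adjusted p = 0.0244) and had a log2 change of -0.18 with mtDNA NZB (standard error 0.28, adjusted p = 0.599). Isg15 has stretches of at least 95% identity to other annotated transcripts, Gm9706 and Gm46878.

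Among the transcription factors, Irf7, which amplifies the interferon response and is itself induced by it, fell most. It had 121, 132 and 238 CPM in resting and 38.3, 46.8 and 78.1 CPM in activated mtDNA B6 libraries, and in mtDNA NZB libraries 134, 110, 114, 118 and 87.9 CPM at rest and 28.8, 49.0 and 68.4 CPM after activation. The groups did not overlap, with log2 changes of -1.61 (standard error 0.21, adjusted p = 6.55e-07) and -1.15 (standard error 0.21, adjusted p = 6.98e-05). Irf3, the constitutive factor downstream of MAVS and STING, fell by 0.54 and 0.31 on the log2 scale, the latter with an adjusted p of 0.0367 that passed in only part of the alternatives. Stat2 rose by 0.40 in mtDNA B6 cells (adjusted p = 0.0346) and had a log2 change of 0.37 in mtDNA NZB cells (adjusted p = 0.0573). Irf9, the partner of STAT2, and Irf1, which interferon gamma induces, did not pass in either haplotype, with log2 changes of -0.19 and -0.07 for Irf9 and -0.01 and 0.04 for Irf1. The approximate 95% interval of the Irf1 change ran from -0.27 to 0.24 in mtDNA B6 cells and from -0.22 to 0.30 in mtDNA NZB cells. The 3′ ends of Irf3 and Irf7 overlap the coding genes Scaf1 and Phrf1 on the other strand, and whether strand was used in the counting is not named in the sources used here. The 3′ end of Irf9 has stretches of at least 95% identity to many other annotated transcripts, Dsn1 and Gapdh among them.

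The sensors and adaptors moved in both directions. Zbp1, which binds Z-form nucleic acid, and Sting1, the adaptor that cGAS signals through, rose in both haplotypes together with Eif2ak2, which encodes the double-stranded RNA kinase PKR. Zbp1 had 115, 119 and 157 CPM in resting and 283, 298 and 308 CPM in activated mtDNA B6 libraries. In mtDNA NZB libraries it had 118, 109, 113, 59.6 and 60.2 CPM at rest and 293, 344 and 377 CPM after activation. Every activated library was above every resting one, with replicates 5 and 6 lowest at rest, and the log2 changes were 1.22 (standard error 0.14, adjusted p = 1.51e-07) and 1.90 (standard error 0.15, adjusted p = 2.66e-10). Sting1 had medians of 129 and 271 CPM in resting and activated mtDNA B6 libraries and of 130 and 263 CPM in mtDNA NZB libraries, and changed by 1.07 (standard error 0.13) and 1.06 (standard error 0.14) on the log2 scale with no overlap. Eif2ak2 rose by 0.59 and 0.92 (adjusted p = 0.00561 and 0.000233), and its 3′ end overlaps Gpatch11 on the other strand. The RNA helicase genes had lower values after activation. Ifih1, which encodes MDA5, fell by 0.85 and 0.98 on the log2 scale (adjusted p = 0.000816 and 0.000448), from medians of 16.8 and 12.8 CPM to 9.30 and 7.16 CPM. Dhx58, which encodes LGP2, fell by 0.70 in mtDNA B6 cells (adjusted p = 0.0122) and had a change of -0.25 in mtDNA NZB cells (adjusted p = 0.396 over 24 libraries and 0.0261 over 21 libraries). Rigi, which encodes RIG-I, had a change of -0.32 in mtDNA B6 cells (adjusted p = 0.0827) and fell by 0.40 in mtDNA NZB cells (adjusted p = 0.0415). Mavs and Cgas did not pass in either haplotype, with log2 changes from 0.10 to 0.30 and medians between 11.0 and 21.0 CPM.

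The IFIT proteins bind viral RNA ends and are among the genes that type I interferon induces most strongly. In edgeR's test 0 of the 3 members passed in either haplotype, with log2 changes of -0.80 and -0.13 for Ifit1, 0.11 and 0.09 for Ifit2 and -0.23 and 0.58 for Ifit3. Ifit2 had 17.7, 21.1 and 26.9 CPM in resting and 15.5, 23.6 and 28.8 CPM in activated mtDNA B6 libraries, which overlap over nearly their whole range. Ifit1 had an adjusted p of 0.0767 in mtDNA B6 cells over 24 libraries and of 0.0473 over 21 libraries. The 3′ end of Ifit3 is 95.3% identical to that of Ifit3b over 993 bases, and Ifit1 overlaps Ifit1bl2 on the other strand, so their counts are uncertain. Within the resting mtDNA B6 libraries Ifit1 ran from 2.70 to 14.5 CPM, the widest spread of the tested members there on the log2 scale (SD 0.76).

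Samhd1, which hydrolyses deoxynucleotides, had 531, 561 and 585 CPM in resting and 1461, 1728 and 2074 CPM in activated mtDNA B6 libraries. In resting mtDNA NZB libraries it had 623, 536, 532, 462 and 394 CPM, and after activation 1452, 1691 and 2039 CPM. It rose by 1.65 (standard error 0.13, adjusted p = 1.22e-10) and 1.84 (standard error 0.13, adjusted p = 2.29e-11) on the log2 scale, and its groups lay far apart in both haplotypes. Isg20, an RNA exonuclease, fell by 0.45 in mtDNA B6 cells with an adjusted p of 0.0366, which was over 0.05 in DESeq2 and when any of several libraries was left out, and had a change of 0.29 in mtDNA NZB cells (adjusted p = 0.204). Cmpk2, a mitochondrial nucleotide kinase, did not pass (log2 changes of -0.40 and -0.13). Its neighbour Rsad2, which encodes viperin, and Ifi44 had too few counts to be tested. Rsad2 held 0.376, 1.32 and 6.99 CPM in resting and at most 1.02 CPM in activated mtDNA B6 libraries, and Ifi44 stayed under 1 CPM in all 23 libraries.

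PARP9 forms a complex with the ubiquitin ligase DTX3L, and PARP14 is a related transferase of the same gene cluster on chromosome 16. All 3 genes rose in both haplotypes. Parp9 went from 21.9, 28.04 and 32.9 CPM to 49.4, 62.0 and 85.03 CPM with mtDNA B6. With mtDNA NZB it had 32.0, 25.2, 19.0, 20.2 and 16.9 CPM at rest and 42.4, 60.7 and 76.2 CPM after activation, with no overlap in either. Its log2 changes were 1.20 (standard error 0.16, adjusted p = 9.49e-07) and 1.42 (standard error 0.17, adjusted p = 2.23e-07). Parp14 changed by 0.41 and 0.48 and Dtx3l by 0.67 and 0.51, and the mtDNA NZB call of Dtx3l (adjusted p = 0.0489) was lost over 21 libraries (adjusted p = 0.147).

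Of the other 6 tested interferon-stimulated genes, Ifi35 rose in both haplotypes, by 0.40 and 0.81 on the log2 scale (adjusted p = 0.021 and 5.16e-05), and its 3′ end overlaps Vat1 on the other strand. Rtp4, a chaperone of opioid receptors, and Bst2, which encodes the virion tether tetherin, fell in mtDNA B6 cells by 0.92 (adjusted p = 0.00585) and 0.47 (adjusted p = 0.00833). In mtDNA NZB cells the same genes had changes of -0.15 (adjusted p = 0.69) and 0.03 (adjusted p = 0.898). Xaf1, Sp100 and Trim30a did not pass in either haplotype, with log2 changes between -0.24 and 0.57. The receptor genes had small changes. Ifnar1 had a change of 0.12 in mtDNA B6 cells (adjusted p = 0.565) and fell by 0.51 in mtDNA NZB cells (adjusted p = 0.0132). That call was lost without resting mtDNA NZB replicate 5, at 83.4 CPM the highest of its group. It was also lost in a fit of the 12 mtDNA NZB libraries alone and with the library set as a term. The same held with blocks by label number. Ifnar2 had log2 changes of 0.22 and 0.06 (adjusted p = 0.184 and 0.727). Its approximate 95% interval ran from -0.04 to 0.47 in mtDNA B6 cells and from -0.21 to 0.33 in mtDNA NZB cells. The 3′ end of Ifnar2 overlaps the coding gene Gm21970 on the same strand, so its counts are uncertain.

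**Figure D3:**
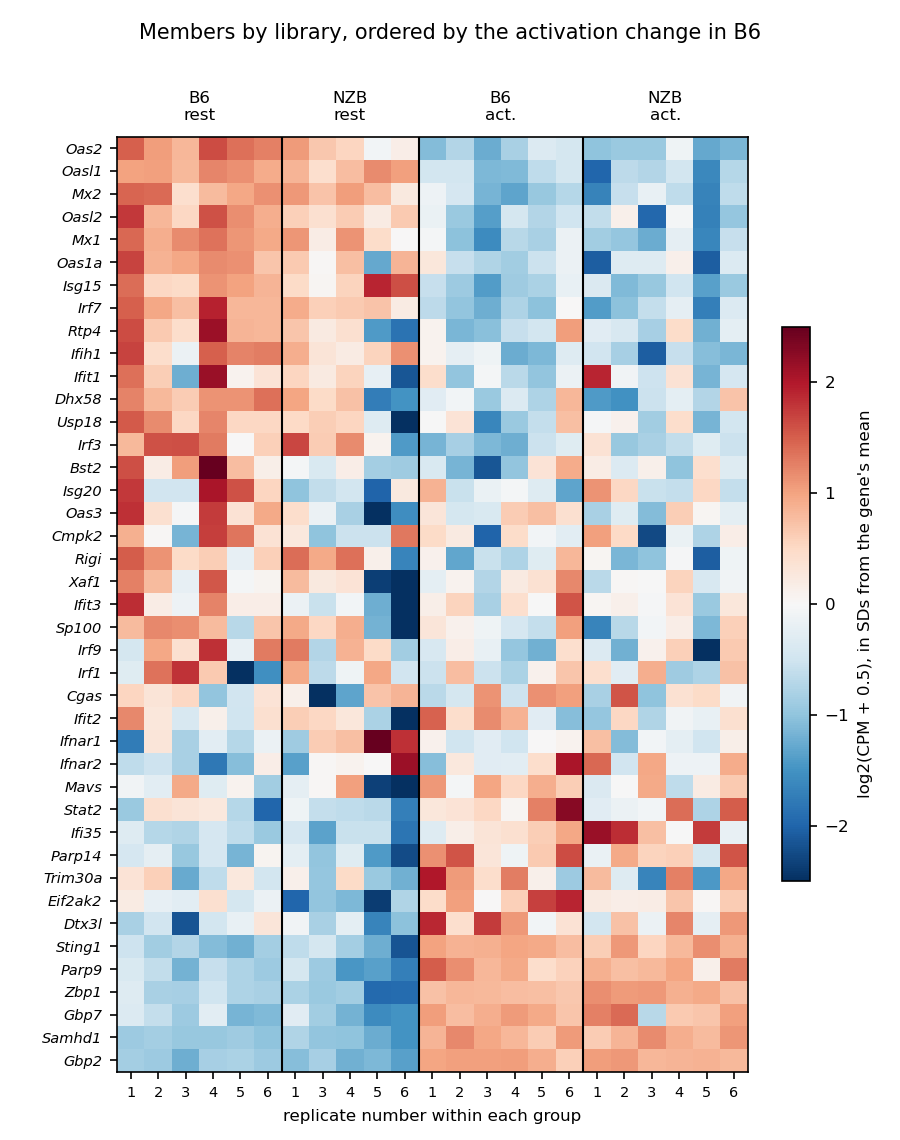
Level of the 41 tested members in each of 23 libraries, as log2(CPM + 0.5) in SDs from the mean of the gene (color), with genes ordered by the activation change in mtDNA B6 cells and libraries in columns by group. The top rows are high in the resting and low in the activated columns, the bottom rows the reverse, and in resting mtDNA B6 replicates 1 and 4 and resting mtDNA NZB replicates 5 and 6 many rows differ from the other columns of their group.

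The promoter letters introduced above were also counted by direction of change. The response element letters were in 4 of the 10 promoters of members that rose in both haplotypes (Eif2ak2, Zbp1, Gbp2 and Gbp7) and in 4 of the 10 that fell in both (Ifih1, Oas2, Isg15 and Oas1a). The gamma-activated site letters were in 6 of the 10 that rose (Ifi35, Eif2ak2, Sting1, Zbp1, Samhd1 and Gbp7) and in 1 of the 10 that fell (Oas1a), beside 7.34% of the promoters of all genes tested. These are counts of letters in groups formed by the activation values and carry no test.

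A wider list of 124 other interferon and nucleic acid sensing genes was read in the same fits, 102 of which were tested. In mtDNA B6 cells 36 rose and 23 fell (57.8% of the 102 called, beside 46.9% of all genes), and in mtDNA NZB cells 36 rose and 20 fell (54.9%, beside 53.5%), with a median log2 change of 0.19 and 0.14. By the rule for this list, the largest rises were those of interferon-inducible GTPases and of Ly6a. Iigp1, an immunity-related GTPase, rose by 3.44 (standard error 0.24) in mtDNA B6 cells and 3.41 (standard error 0.27) in mtDNA NZB cells on the log2 scale, and Ly6a, which encodes SCA-1, by 2.36 and 3.07. The rule also named the immunity-related GTPase genes Irgm2 in mtDNA B6 cells (2.47) and Igtp in mtDNA NZB cells (2.31). The largest falls were those of Ifi213, a gene of the HIN-200 family (-1.93 and -1.78), and of Tdrd7 (-1.74 and -1.39), followed by Ifitm3 in mtDNA B6 cells (-1.50) and the chemokine gene Cxcl10 in mtDNA NZB cells (-1.42). Of the 3 type I interferon genes on the list, Ifna4 was at 0 in all 23 libraries with over 100000 counts, and Ifnb1 and Ifna2 reached at most 0.402 and 0.249 CPM. Ifng, which encodes interferon gamma, had medians of 100.7 CPM at rest and 56.7 CPM after activation with mtDNA B6 and of 115 and 49.1 CPM with mtDNA NZB, and did not pass (log2 changes of -0.66 and -0.85, adjusted p = 0.133 and 0.0609 over 24 libraries, and 0.0327 for mtDNA NZB over 21 libraries). These 4 genes were named after their values were seen.

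Summed markers of other cell types moved with activation in both directions. The 10 monocyte and macrophage markers summed to 482 to 3098 CPM in resting and to 12.4 to 119 CPM in activated libraries, the 10 neutrophil precursor markers to 417 to 20710 and to 7.43 to 180 CPM, and the 9 B cell markers, mainly Ighm, to 5744 to 16000 and to 1115 to 6170 CPM. The 5 plasmacytoid dendritic cell markers, of a cell type known for high Irf7, summed to 99.6 to 158 CPM in resting and 91.8 to 114 CPM in activated mtDNA B6 libraries and to 74.7 to 172 and 71.9 to 126 CPM in mtDNA NZB libraries, which overlap. Within that list Siglech had medians of 3.69 and 8.12 CPM at rest and of 0 CPM after activation in both haplotypes, Klk1 was at 0 in every activated library, and Cox6a2 went from medians of 4.649 and 7.23 CPM to 0.434 and 0.383 CPM. The more abundant Pacsin1 and Tcf4 overlapped between the states, and the mtDNA B6 median of Tcf4 was higher after activation (35.6 CPM, against 26.4 CPM at rest). The B cell gene Cd79b did not follow Ighm, with a median of 226 CPM in resting and 267 CPM in activated mtDNA B6 libraries. Other lists had higher medians after activation, the 2 CD8 T cell markers at 277 against 68.6 CPM with mtDNA B6 and 165 against 65.2 CPM with mtDNA NZB, the 4 NK cell markers at 100.1 against 22.7 CPM and 56.1 against 22.0 CPM, and the 3 platelet markers at 140 against 14.6 CPM and 97.8 against 13.7 CPM. Within the NK list only Gzma rose, from medians of 12.1 and 10.6 CPM to 98.1 and 54.2 CPM in mtDNA B6 and mtDNA NZB libraries. Klrb1c went the other way, from 8.13 and 6.72 CPM to 1.94 and 0.955 CPM. Ncr1 and Klre1 had medians of at most 0.458 CPM in every group. In these bulk libraries fewer cells of a type and less RNA per cell cannot be told apart. The part of other cells in the activation changes was not tested. The summed T cell markers overlapped between the states, 4758 to 9111 CPM at rest and 6707 to 9017 CPM after activation.

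**Figure D4:**
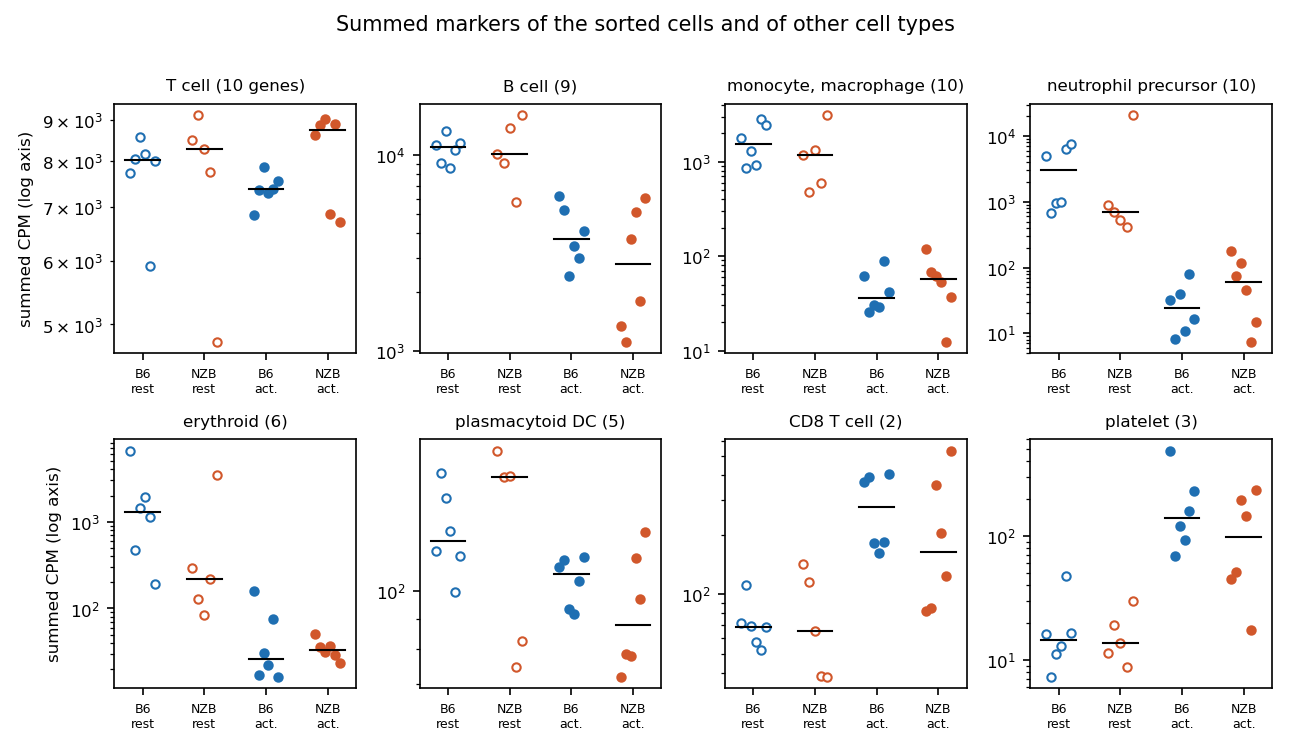
Summed level of 8 marker lists in each library (y axis, CPM on a log axis; open points at rest, filled points activated, bars are medians; 23 libraries; mtDNA B6 blue, mtDNA NZB orange). The monocyte and neutrophil precursor sums of every activated library are below those of every resting library, the erythroid sums mostly so, while the T cell sums overlap and the CD8 T cell and platelet medians are higher after activation.

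Between the haplotypes at rest, 4 of 41 members passed (9.76%, beside 2.76% of all genes tested), 3 lower and 1 higher in mtDNA NZB cells (beside 0.861% and 1.9%). Oas2, with the values given above, was lower with mtDNA NZB (log2 difference -1.23, standard error 0.32, adjusted p = 0.0389). Oas3 had 29.7, 39.4 and 61.9 CPM in resting mtDNA B6 libraries and 35.7, 28.2, 21.6, 10.1 and 16.1 CPM in resting mtDNA NZB libraries (log2 difference -0.97, standard error 0.24, adjusted p = 0.0385). For both OAS genes the haplotypes overlapped, through mtDNA NZB replicate 1, which was above the lowest mtDNA B6 library. Eif2ak2 had 14.5, 16.0 and 19.97 CPM in mtDNA B6 and 8.01, 11.8, 11.2, 6.87 and 12.9 CPM in mtDNA NZB libraries, the 1 member with no overlap (log2 difference -0.70, standard error 0.19, adjusted p = 0.0444). Groups lay apart in this direction in 1.05% of all genes tested, and in the other direction in 1.53%. Ifnar1 was higher in mtDNA NZB cells, with 26.2, 35.4 and 42.7 CPM against 32.0, 46.0, 47.3, 83.4 and 61.0 CPM (log2 difference 0.63, standard error 0.17, adjusted p = 0.043).

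**Figure D5:**
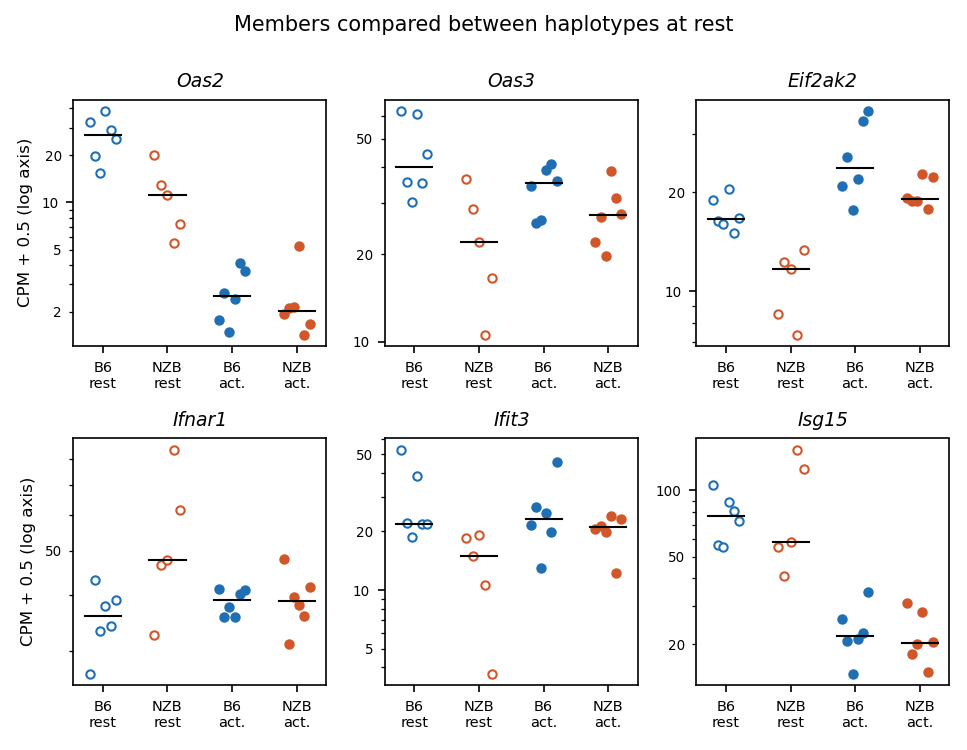
Level of 6 members in each library (y axis, CPM + 0.5 on a log axis; open points at rest, filled points activated, bars are medians; mtDNA B6 blue, mtDNA NZB orange). The resting mtDNA NZB points of Oas2, Oas3, Ifit3 and Eif2ak2 lie mostly below those of mtDNA B6, those of Ifnar1 mostly above, and 2 resting mtDNA NZB points of Isg15 above all others.

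The log2 difference was below 0 in 38 of 41 members (median -0.29), beside 5406 of 10566 genes (median -0.01), and in 36 of 41 over 21 libraries (median -0.27). The members share the same resting libraries, so these signs are not independent of each other. The 3 members above 0 were Isg15 (0.14, and -0.01 over 21 libraries), Ifnar1 and Ifnar2. The next smallest adjusted p were those of Isg20 (0.06, log2 difference -0.63), Ifit3 (0.063, -1.13) and Zbp1 (0.0656, -0.49). The calls lay close to the adjusted p limit of 0.05. Many were lost when a single library was left out, also one outside the comparison. With a log2 difference of at least 1 also required, 1 member passed (beside 1.01% of all genes). Over 21 libraries, where 6.11% of all genes passed, Oas2, Eif2ak2 and Isg20 did (adjusted p = 0.0452, 0.0256 and 0.0307), and Oas3 and Ifnar1 did not (0.0531 and 0.0633). Of the 6 resting mtDNA B6 libraries, replicates 1 and 4 held the highest value of 16 and 12 of the 41 members, and of the 5 resting mtDNA NZB libraries replicates 6 and 5 held the lowest value of 23 and 10. Without resting mtDNA B6 replicate 1, 3, 4 or 5, or without resting mtDNA NZB replicate 5, 0 members passed in edgeR's test. There was 1 without resting mtDNA B6 replicate 6, 2 without activated mtDNA B6 replicate 1, 2 or 4 or activated mtDNA NZB replicate 4, and 6 without resting mtDNA NZB replicate 1 or 4. Resting mtDNA NZB replicate 6 had the highest neutrophil precursor sum (20710 CPM) and the lowest T cell sum (4758 CPM) of the 23 libraries, whereas replicate 5 had the lowest neutrophil precursor sum at rest (417 CPM) and a T cell sum of 7753 CPM. With the set of reads per UMI as a term in edgeR's fit, again 0 members passed.

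After activation, 0 of 41 members differed between the haplotypes in edgeR's test, as did 0% of all genes tested. An unadjusted p under 0.05 was held by 2 of 41 members, beside 327 of 10566 genes. DESeq2 also called 0. No member's groups lay apart, as was so for 0.0284% of all genes in each direction. Those 2 members were Eif2ak2, with a log2 difference of -0.37 (standard error 0.17), and Ifi35, with 0.30 (standard error 0.14). The differences ran from -0.45 to 0.30 with a median of -0.09. For Oas2 the approximate 95% interval of the difference, from -1.13 to 0.64, was wide, whereas for Irf1 it ran from -0.24 to 0.27.

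The responses to activation were then compared directly, as the mtDNA NZB minus the mtDNA B6 change. In edgeR's test 0 of 41 members passed over 24 libraries, where 0% of all genes did, while DESeq2 also called 0 members. An unadjusted p under 0.05 in edgeR's test was held by 6 of 41 members, beside 1512 of 10566 genes, a similar share. Over 21 libraries again 0 members passed, beside 1.04% of all genes. The smallest adjusted p belonged to Zbp1 (0.207, and 0.0939 over 21 libraries), whose rise was larger in mtDNA NZB cells by 0.68 on the log2 scale (standard error 0.20), with an approximate 95% interval from 0.28 to 1.07. Isg20 followed with a difference of 0.74 (standard error 0.26, adjusted p = 0.231, and 0.0808 over 21 libraries), then Ifnar1 with -0.63 (standard error 0.23, adjusted p = 0.239). For Oas2 the difference was 0.99 (standard error 0.56, adjusted p = 0.422). The genes called in only 1 haplotype above, such as Usp18, Rtp4, Bst2 and Rigi, are thus not shown to respond differently in the other.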

How the data were processed

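Reads of bulk MARS-seq libraries from resting and activated Tconv CD4+ cells were processed by the study with cutadapt, STAR and htseq-count. After reads shorter than 30 bases had been removed, mapping was to 3′ UTR regions of 1000 bases (GRCm39, Ensembl 106). The authors deposited UMI counts per gene, deduplicated and corrected for UMI saturation but not scaled to depth, which were used here. A second deposited count table with larger totals, read as reads before deduplication, served as an alternative. Whether counting used strand is not given in the sources used here. The number of columns that matched no sample was 1, and it was not used.

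Genes were filtered with filterByExpr, scaled by TMM and tested with edgeR 4.0.16 (quasi-likelihood test, R 4.3.3) over 4 groups and 24 libraries, with Benjamini-Hochberg adjustment over 10566 genes. A gene was called at an adjusted p of at most 0.05. Approximate 95% intervals are the change plus and minus its standard error times the normal quantile. Levels are TMM-scaled CPM over the 23 libraries with over 100000 counts, and precision covers counting error and the spread between libraries. The 21-library alternative leaves out replicate 6 of both mtDNA NZB states and replicate 2 of the resting one. It is not a filter on depth. Only resting replicate 2 held under 100000 counts, and activated replicate 6, at 6449395 counts, was the deepest library. DESeq2 1.42.0, RLE scaling, other filters, a fit of 12 libraries, a library set term, replicate blocks and leaving out each library were also run. The fit was tested on simulated data.

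All 43 members are named. From the wider list, the 3 largest rises and 3 largest falls per activation comparison were named among called genes with a mean of at least 10 CPM in a group. Of its 124 symbols, 121 matched a gene identifier. The members and lists were chosen with earlier results of these data known. Samples of the same label number were not treated as paired in the main fit. Their deviations correlated weakly (9 pairs, correlation from -0.158 to 0.253), and the 3 over 0.1 were all of mtDNA B6. The study describes splitting isolated cells into resting and activated portions, so pairing by label number remains possible. A fit with a block by label number is given among the alternatives. Results for some genes are not reported here.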

Additional observations from a re-analysis of the deposited data

Results flagged for a closer look

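In 5 of 164 sets of 6 or 5 libraries (41 members in 4 groups), the highest or lowest library stood apart from the others by Dixon's criterion, which by chance marks about 1 set in 20. Oas2 had 4.79 CPM in activated mtDNA NZB replicate 4, where the next library had 1.64 CPM. Ifit1 had 12.9 CPM in activated mtDNA NZB replicate 1, where the next had 6.1 CPM. Ifit3 was low in activated mtDNA NZB replicate 5, at 11.8 CPM against 19.3 CPM in the next. Gbp2 was low in resting mtDNA B6 replicate 3, at 23.3 CPM against 35.0 CPM in the next. Sp100 was low in resting mtDNA B6 replicate 5, at 268 CPM against 375 CPM in the next.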

How the results depend on the processing

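No called member changed direction in its comparison under an alternative, whereas members that were not called did in some, such as Ifit2 on activation with mtDNA NZB (0.09, and -0.14 over 21 libraries). With a log2 fold change of at least 1 required, 6 members rose and 8 fell in mtDNA B6 cells, 6 rose in mtDNA NZB cells and 1 differed at rest. In a fit of the 12 libraries compared, 6 members fell in mtDNA NZB cells and 0 differed at rest. Some members that fell with mtDNA NZB in the main fit were filtered out of that fit and not tested. At rest DESeq2 called 1 member, the larger set of counts 0 and the library set term 0. Leaving out 1 library at a time gave 9 to 11 rises and 13 to 16 falls in mtDNA B6 cells, 9 to 11 rises and 9 to 12 falls in mtDNA NZB cells, and 0 to 6 members at rest. A replicate block by label number gave 9 rises and 14 falls with mtDNA B6, 9 and 9 with mtDNA NZB and 0 differences of response. The replicate block by title number gave 10 and 15, 9 and 9, 0 differences of response and 1 member at rest. Outside the fold limit, 18 of 26 calls in mtDNA B6 cells and 17 of 22 in mtDNA NZB cells were kept in every alternative that tested the gene. At rest 0 of 4 were. On activation, some called members were filtered out and not tested in some alternatives, and this was not counted as a loss. The calls lost most often were Isg20, in 14 alternatives, and Stat2, in 9, in mtDNA B6 cells, and Dtx3l, in 23, Irf3, in 16, and Rigi, in 14, in mtDNA NZB cells. The cause was not tested. Depth limits the members of few counts, above all Oas1a, both Mx genes, Trim30a, Ifit1 and activated Oas2.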
